A study of Mus musculus with 8 samples.

Results

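The genes described here are the 9 smooth muscle contractile genes Acta2, Actg2, Tagln, Cnn1, Tpm1, Tpm2, Myl9, Myh11 and Des, taken by gene symbol from the 31053 genes of the feature lists, and each of the 9 was found once. Their UMI counts (unique molecular identifiers, 1 for each captured transcript) were read in 8 single-cell libraries of dorsal skin of female BALB/c mice, labelled 14 to 16 weeks old. In 4 libraries the skin had been injected under the skin surface with PBMCsec, the secretome of irradiated human peripheral blood mononuclear cells, and in the other 4 with a vehicle. Each library came from 4 mm biopsies that were dissociated with a skin enzyme kit. The labels number the libraries 1 to 4 in each group and name no wound, time point or control solution, and nothing in them says whether each library is a separate mouse, so p-values measure the spread between these libraries only. The question of the design is whether skin given PBMCsec differs from skin given vehicle, and it is asked here of the contractile genes in the cells that hold them.

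Smooth muscle contracts when myosin filaments pull on actin filaments, and the genes of this set encode parts of that machine. Acta2 and Actg2 encode the smooth muscle actins, Tagln and Cnn1 encode actin-binding proteins, Tpm1 and Tpm2 encode tropomyosins that lie along the actin filament, Myh11 encodes the smooth muscle myosin heavy chain, Myl9 encodes a regulatory myosin light chain, and Des encodes desmin, an intermediate filament protein of muscle. In skin these proteins are known from mural cells (the pericytes and smooth muscle cells of blood vessels), from the muscle that erects the hair, from the dermal sheath, a contractile fibroblast layer around the hair follicle, and from myofibroblasts of wounds and scars. Many contractile genes are controlled by serum response factor, which binds a short DNA element called the CArG box.

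The genes lie on 7 chromosomes of the mouse genome (GRCm38, GENCODE annotation). Acta2 is at chr19:34241090-34255590 on the minus strand, Tagln at chr9:45929619-45936058 (minus), Myl9 at chr2:156775420-156781658 (plus), Tpm1 at chr9:67022590-67049406 (minus), Tpm2 at chr4:43514711-43523765 (minus), Cnn1 at chr9:22099216-22109630 (plus), Actg2 at chr6:83512905-83536265 (minus), Myh11 at chr16:14194535-14291372 (minus) and Des at chr1:75360329-75368579 (plus). Tagln overlaps Pcsk7 and the antisense gene Gm48529 on the opposite strand, and Des overlaps the antisense gene Gm15179, so a counting that ignored strand could give each the reads of its neighbour.

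Promoter sequences were available for 6 of the 9 genes in a RefSeq table (GRCm38.p6), and the 250 bases before each start were searched on both strands for the CArG box. A box without mismatch was found before Myl9 alone, and 1.47% of all 32851 promoters of the table hold one. A box with exactly 1 mismatch was found before Myl9, Tpm1 and Acta2, and 17.5% of all promoters hold one. Before Tpm2, Cnn1 and Des neither kind of box was found. The windows of 30 bases are shown for every match before the 6 genes, whatever their levels in cells, and capitals mark the box. Distances are counted from the RefSeq start, which for Acta2, Tpm1 and Myl9 lies inside the GENCODE gene given above. Both Acta2 windows and the second Tpm1 window are within that longer gene, while the first Tpm1 window and both Myl9 windows lie before it. A match is a description of the letters and not a measured binding site.
Myl9, chr2:156775293-156775322, plus strand, no mismatch, 161 bases before the start: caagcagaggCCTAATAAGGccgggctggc
Myl9, chr2:156775355-156775384, plus strand, 1 mismatch, 99 bases before the start: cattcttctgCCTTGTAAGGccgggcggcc
Tpm1, chr9:67049415-67049444, minus strand, 1 mismatch, 221 bases before the start: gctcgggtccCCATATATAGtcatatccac
Tpm1, chr9:67049274-67049303, minus strand, 1 mismatch, 80 bases before the start: acaagcttttCCAAAAAAGTattggctgtc
Acta2, chr19:34255438-34255467, minus strand, 1 mismatch, 84 bases before the start: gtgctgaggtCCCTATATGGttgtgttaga
Acta2, chr19:34255388-34255417, minus strand, 1 mismatch, 34 bases before the start: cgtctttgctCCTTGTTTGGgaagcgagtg

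The libraries held between 14753926 and 37880651 UMIs. The filter of the study, which asked for 500 to 4000 detected genes, no more than 20000 UMIs and a mitochondrial share up to 5%, kept 6150 of 26231 barcodes, between 151 and 1659 per library, with a median between 6156 and 9521 UMIs per cell. Only 4 kept barcodes occurred in more than 1 library. PBMCsec library 2 stood apart from the other 7 for Cnn1 and Myh11, as described for the epithelial cells. Treatment fold changes without it are given for Acta2 and Myh11 over all cells. In the follicle-like epithelium they are given for Acta2, Tagln, Myl9 and Tpm2. The cells fell into 36 clusters, of which 32 were named from marker genes, and the contractile genes themselves were left out of the clustering. Levels are given as CPM, the usual scaling of the UMIs of a gene to the total UMIs of the same cells, and are compared only within a gene.

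The 3 sets of cells described most closely are mural-like cells, sheath-like fibroblasts and a cluster of the follicle-like epithelium, and each name rests on markers alone. The mural-like cells (cluster 34) numbered 38, with 13 of 14 mural markers in at least 25% of the cells, and Rgs5, a pericyte marker, was at 8144 CPM in all 38 cells. Of 10 fibroblast markers 5 were in at least 25% of them, at a summed level of 7400 CPM, with Col1a1 at 1331 CPM in 28 cells, while Lum, Pdgfra and Mfap5 were at 0, and the part of fibroblast RNA in their levels was not tested. The sheath-like fibroblasts (cluster 14, dermal sheath and papilla markers) numbered 205, with 12 of 20 sheath and papilla markers in at least 25% of the cells and Rgs5 at 0. The follicle-like epithelium numbered 1564 cells, and its cluster 9 (231 cells), with the follicle genes Krt17 at 3501 CPM, Slc1a3 at 274 CPM, Lhx2 at 267 CPM and Fgf5 at 145 CPM, is described on its own. All 9 genes of dissociation stress were found in at least 25% of the mural-like cells, 7 of 9 in the sheath-like fibroblasts and 6 of 9 in cluster 9, at summed levels of 19580, 4885 and 1976 CPM, and the part of stress in the contractile gene levels was not tested.

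Most UMIs of the contractile genes were not in mural-like cells. The follicle-like epithelium held 65.5% of all Acta2 UMIs, the sheath-like fibroblasts 25.8% and the mural-like cells 4.93%, although the mural-like cells were only 0.618% of all cells. The same order held for Tagln, with 71.8%, 17.8% and 5.18%. Des and Myh11 were different, since the mural-like cells held 62.4% of the Des UMIs and 44.6% of the Myh11 UMIs, and 88.1% of the Actg2 UMIs lay in the sheath-like fibroblasts.

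**Figure D1:**
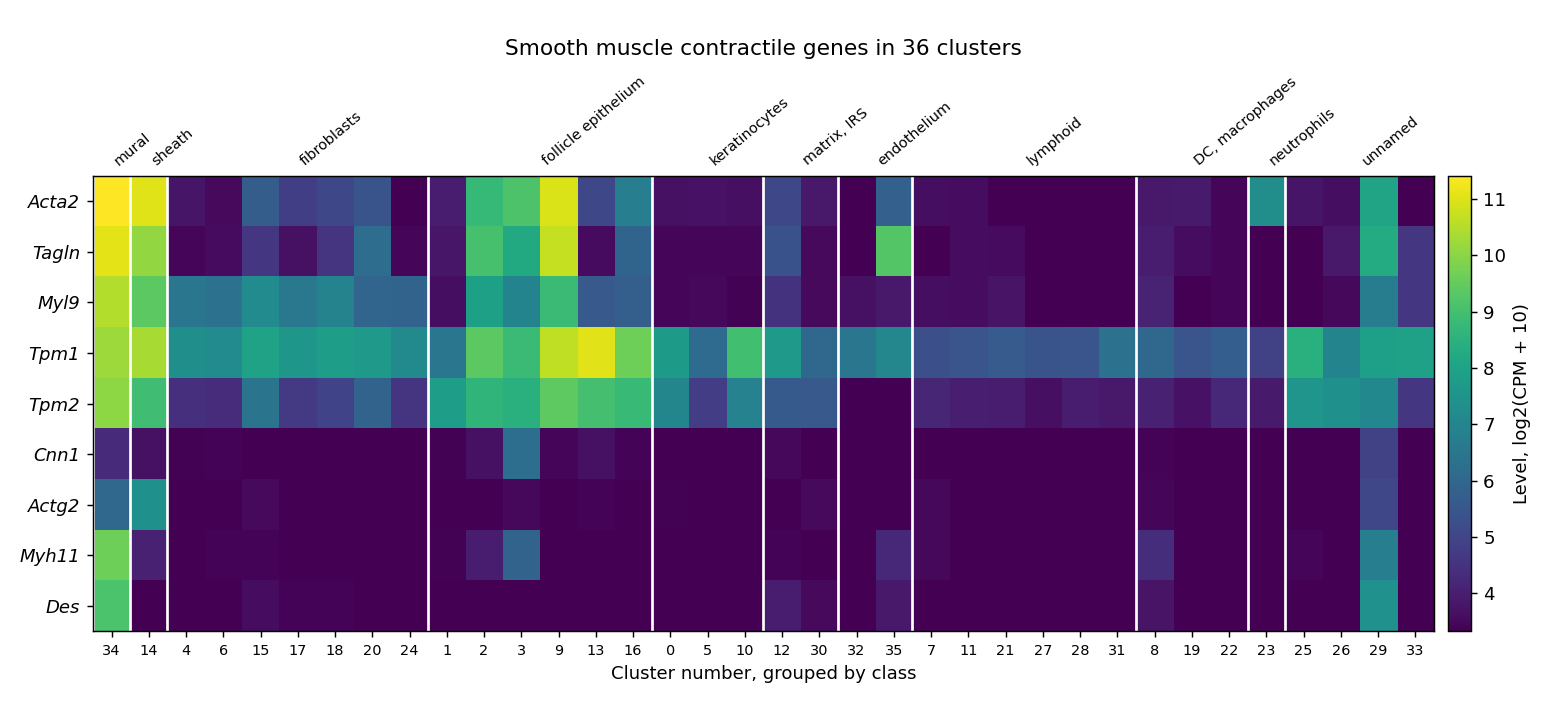
Each row is a contractile gene and each column 1 of the 36 clusters, grouped by class, and colour gives the level as log2(CPM + 10), to be compared along a row only. Acta2, Tagln and Myl9 are high in cluster 34 (mural-like), cluster 14 (sheath-like) and cluster 9 (follicle-like), while Des is high in cluster 34 and Tpm1 is highest in cluster 13 of the follicle-like epithelium.

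Acta2, the actin used to mark smooth muscle and myofibroblasts, was high in all 3 sets. In the mural-like cells its level was 2109 CPM in PBMCsec library 1, 2970 in library 3, 2235 in library 4 and 3798 in vehicle library 4, the libraries with at least 5 such cells, and the mean was 2778 ± 779 CPM (SD, n = 4 libraries). PBMCsec library 2 and vehicle library 3 had 1 and 3 mural-like cells, and vehicle libraries 1 and 2 had none. The vehicle value was above the 3 PBMCsec values, but with a single vehicle library no difference between treatments could be tested.

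In the sheath-like fibroblasts the Acta2 level was 9.97, 0, 872 and 3475 CPM in PBMCsec libraries 1 to 4. In the vehicle libraries 2, 3 and 4 it was 83.0, 2268 and 6685 CPM, and vehicle library 1, with 3 cells, had no Acta2 UMI. The libraries numbered 1 and 2 were low in both groups and the libraries numbered 3 and 4 were high in both. PBMCsec library 2 and vehicle library 2 had only 6 and 7 sheath-like cells. The low values rest mainly on PBMCsec library 1, with 33 such cells. In cluster 9 the level was 883, 2815 and 2522 CPM in PBMCsec libraries 1, 3 and 4, and 1786 and 1646 CPM in vehicle libraries 3 and 4, a mean of 1931 ± 764 CPM (SD, n = 5 libraries), and the vehicle values lay inside the range of the PBMCsec values.

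Outside these sets Acta2 was 226 CPM in the rest of the follicle-like epithelium and 148 CPM in neutrophil-like cells, both described below. In the other named classes Acta2 was lower. Its level over all libraries together was 17.3 CPM in the other fibroblasts, 2.95 CPM in keratinocytes and 1.19 CPM in T, B and innate lymphoid cells, a class that should lack it. An Acta2 UMI was found in 30 of 38 mural-like cells (79.0%, 95% exact binomial interval 62.7 to 90.5%), in 92 of 205 sheath-like fibroblasts (44.9%, 37.9 to 52.0%) and in 189 of 231 cells of cluster 9 (81.8%, 76.2 to 86.6%). In lymphoid cells it was found in 4 of 837 (0.478%), at a median of 3342 UMIs per cell against 5016, 5970 and 10521 UMIs in the 3 sets. After every cell had been reduced to 1000 random UMIs, the shares became 69.4%, 33.5%, 59.6% and 0.362%, and the gap to the lymphoid cells was present at equal depth. These intervals cover counting error only.

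Actg2, the enteric smooth muscle actin, had its highest level over all libraries together in the sheath-like fibroblasts, but this order did not hold in each library. It was 158 CPM there (95% exact Poisson interval 137 to 180), with a UMI in 45 of 205 cells, against 55.7 CPM in mural-like cells (27.8 to 99.6, 11 UMIs in 7 cells) and 0 in cluster 9. By library its level in the sheath-like fibroblasts was 0, 0, 86.0 and 333 CPM in PBMCsec libraries 1 to 4, and 0, 116 and 501 CPM in vehicle libraries 2 to 4. In the mural-like cells it was 42.2, 138 and 0 CPM in PBMCsec libraries 1, 3 and 4 and 20.9 CPM in vehicle library 4, above the sheath-like value in PBMCsec libraries 1 and 3 and below it in the library numbered 4 of each group. The high sheath-like libraries were those that were high for Acta2, and 43 of the 45 sheath-like cells with Actg2 also held Acta2. In cluster 9, 0 of 231 cells held Actg2, which allows a share of up to 1.30%.

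Tagln, which encodes the actin-binding protein transgelin, followed the same 3 sets. Its mean level was 2320 ± 445 CPM in mural-like cells (SD, n = 4 libraries), with values of 1962, 2970 and 2199 CPM after PBMCsec and 2149 CPM after vehicle. In cluster 9 it was 1775 ± 815 CPM (SD, n = 5), with 1201, 3113 and 1997 CPM after PBMCsec and 1271 and 1294 CPM after vehicle. The values of the mural-like cells and of cluster 9 overlapped. In the sheath-like fibroblasts Tagln was 9.97, 0, 562 and 1847 CPM in PBMCsec libraries 1 to 4 and 0, 1265 and 3054 CPM in vehicle libraries 2 to 4, again high only in the libraries numbered 3 and 4. Of the cells with Acta2, 90.0% also held Tagln in mural-like cells, 78.3% in sheath-like fibroblasts and 92.6% in cluster 9.

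Cnn1, which encodes calponin, a regulator of smooth muscle contraction, was nearly absent from all 3 sets. It had 2 UMIs in the mural-like cells (10.1 CPM, exact Poisson interval 1.23 to 36.6), 4 in the sheath-like fibroblasts and 2 in cluster 9. Only 181 Cnn1 UMIs were found in all 6150 cells, and 152 of them were in 9 epithelial cells of PBMCsec library 2.

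**Figure D2:**
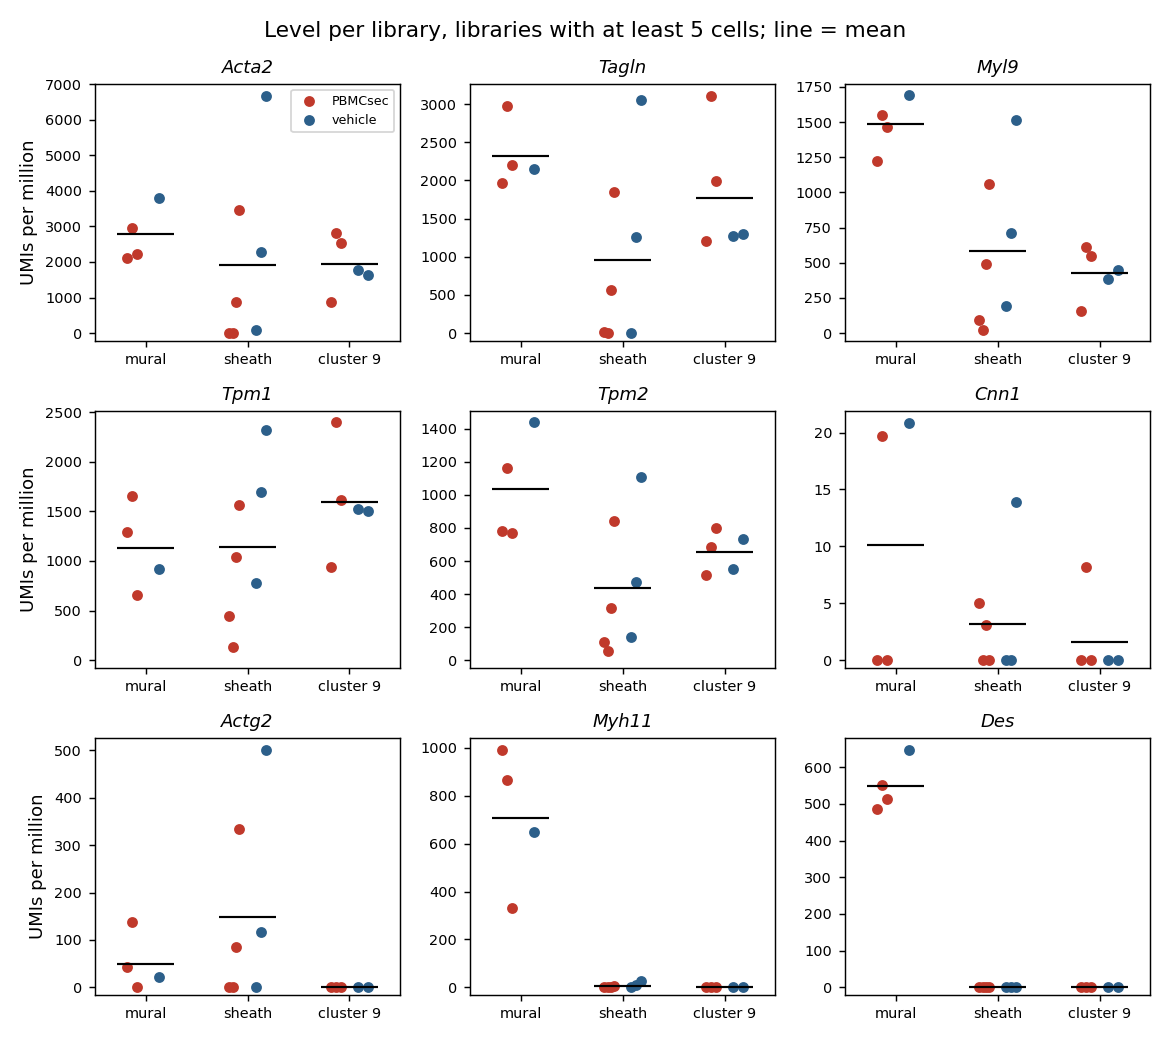
Each panel is 1 gene, each point the level of 1 library with at least 5 cells of the set, in CPM, with PBMCsec in red and vehicle in blue and the line at the mean. Mural-like values of Des lie between 485 and 647 CPM with 0 in both other sets, and sheath-like values of Acta2 run from 0 to 6685 CPM.

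The tropomyosin genes were the most widely found of the set. Tpm1 was 1595 ± 522 CPM in cluster 9 (SD, n = 5 libraries), 1140 ± 766 CPM in sheath-like fibroblasts (n = 7) and 1129 ± 433 CPM in mural-like cells (n = 4), and the values of all 3 sets overlapped. In the sheath-like fibroblasts Tpm1 was 444, 134, 1044 and 1564 CPM in PBMCsec libraries 1 to 4 and 775, 1692 and 2323 CPM in vehicle libraries 2 to 4, so that unlike Acta2 it was found in every library. Its highest cluster was cluster 13 of the follicle-like epithelium, at 2122 CPM, where Krt6a was the top gene and Acta2 was 23.9 CPM and Tagln 1.92 CPM. Tpm1 was also found in 59.0% of keratinocytes (237 CPM) and 71.4% of the other fibroblasts (183 CPM), against 12.9% of lymphoid cells (36.2 CPM).

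Tpm2 was 1038 ± 324 CPM in mural-like cells (SD, n = 4), 657 ± 121 CPM in cluster 9 (n = 5) and 434 ± 402 CPM in sheath-like fibroblasts (n = 7). In the mural-like cells the 4 libraries had 781, 1160 and 770 CPM after PBMCsec and 1440 CPM after vehicle, and the lower values overlapped those of cluster 9. In keratinocytes it was 83.3 CPM, in the other fibroblasts 27.9 CPM and in lymphoid cells 5.93 CPM. In 83 endothelial cells 0 held Tpm2, which allows a share of up to 3.61%, while 35 of the 83 held Tpm1.

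Myl9, the regulatory light chain gene, was 1483 ± 196 CPM in mural-like cells (SD, n = 4 libraries). Its values there were 1223, 1554 and 1466 CPM after PBMCsec and 1690 CPM after vehicle, all above the 5 values of cluster 9, which lay between 159 and 611 CPM. In the sheath-like fibroblasts Myl9 was 94.8, 19.2, 491 and 1062 CPM after PBMCsec and 194, 712 and 1516 CPM in vehicle libraries 2 to 4, the same split by library number as Acta2. Myl9 was also found in 38.7% of the other fibroblasts (89.6 CPM), and in 0.717% of lymphoid cells and 0.967% of keratinocytes.

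Myh11, the myosin heavy chain of differentiated smooth muscle, separated the mural-like cells from both other sets. Its level was 991, 865 and 330 CPM in PBMCsec libraries 1, 3 and 4 and 647 CPM in vehicle library 4, a mean of 708 ± 290 CPM (SD, n = 4 libraries). It was 6.64 CPM in the sheath-like fibroblasts (9 UMIs in 5 cells), and 0 of 231 cells of cluster 9 held it, which allows a share of up to 1.30%. A Myh11 UMI was found in 27 of 38 mural-like cells (71.1%), and in 33.3% of them at 1000 UMIs per cell.

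Des had the highest share of its UMIs in mural-like cells of the 9 genes. The level was 485, 551 and 513 CPM in PBMCsec libraries 1, 3 and 4 and 647 CPM in vehicle library 4, and the mean was 549 ± 70.6 CPM (SD, n = 4). No Des UMI was found in 205 sheath-like fibroblasts (up to 1.46%) or in 1564 cells of the follicle-like epithelium (up to 0.192%). Of 38 mural-like cells 29 held Des (76.3%), and 23 held both Myh11 and Des. Outside the named classes Des reached 159 CPM in the unnamed cluster 29, in 8 of 84 cells, where Tagln was 307 CPM and Acta2 252 CPM, the latter in 3 cells.

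Doublets, droplets with more than 1 cell, were checked in the mural-like cells, since 23 of the 38 were in the top 5% of doublet scores of their libraries. Acta2 was 2646 CPM in these 23 cells and 2839 CPM in the other 15. Myh11 was 801 against 730 CPM and Des 445 against 717 CPM. Of genes of other cell types, the collagen gene Col1a1 was 761 CPM in 17 of the 23 cells and 2285 CPM in 11 of the 15, and the keratin gene Krt14 had a UMI in 5 and 4 cells. Pecam1, of endothelium, had a UMI in 0 and 1 cells, and Ptprc, of leukocytes, and Pdgfra, of fibroblasts, were at 0 in both.

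All of Acta2, Tagln, Myl9, Tpm1 and Tpm2 were found in 57.9% of mural-like cells, 65.4% of cluster 9 and 31.7% of sheath-like fibroblasts, and in 0 of 827 keratinocytes and 0 of 837 lymphoid cells. They were not confined to the 3 sets. Of the follicle-like clusters, 67 of 314 cells of cluster 2 (21.3%) and 7 of 191 of cluster 16 held all of them, and 0 of 208 of cluster 13. So did 10 of 1357 other fibroblasts and all 9 epithelial cells with Myh11 and Cnn1 described below. Of the 22 mural-like cells with these 5 genes, 19 also held Myh11 and 19 held Des. Of the 65 such sheath-like fibroblasts, 38 held Actg2, 5 held Myh11 and 0 held Des. Of the 151 such cells of cluster 9, 0 held Actg2, Myh11 or Des. Cells in these sets come from the same libraries and are not replicates, so the shares carry no test.

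**Figure D3:**
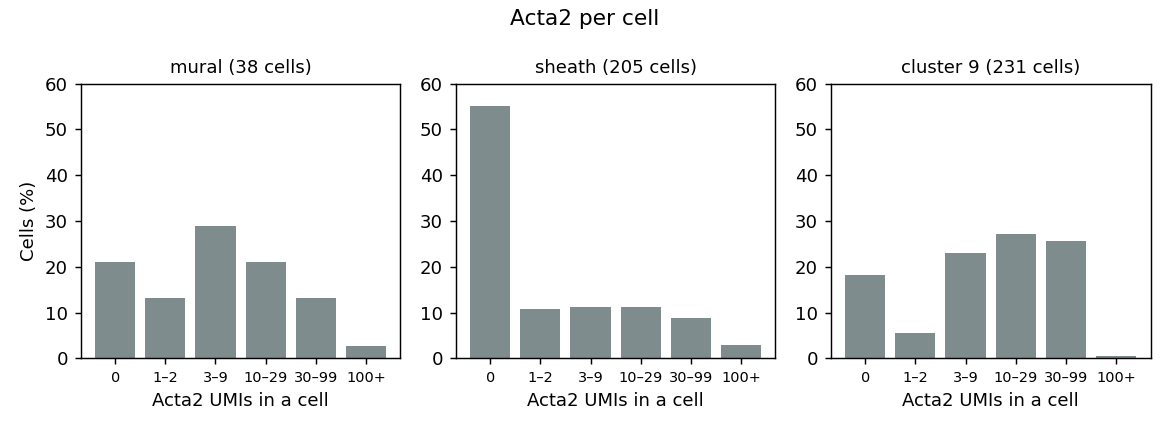
Bars give the percentage of cells (y axis) by the number of Acta2 UMIs in the cell (x axis) for mural-like cells, sheath-like fibroblasts and cluster 9 of the follicle-like epithelium. Of 205 sheath-like fibroblasts 113 had no Acta2 UMI, while the median cell of cluster 9 had 10.

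The sheath-like fibroblasts were not uniform for Acta2. Of the 205 cells 113 had no Acta2 UMI, 45 had 1 to 9 and 47 had 10 or more, up to 293 in a cell, and the 20 highest cells held 75.0% of the Acta2 UMIs. The 47 cells with 10 or more came from PBMCsec library 3 (4 of 51 cells), PBMCsec library 4 (13 of 26), vehicle library 3 (23 of 61) and vehicle library 4 (7 of 18). In the libraries numbered 1 and 2 no sheath-like cell of either group reached 10 UMIs. These libraries had 33 and 6 such cells after PBMCsec and only 3 and 7 after vehicle.

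Other genes differed between these cells, as a description of the same cells that were clustered. The 47 cells with at least 10 Acta2 UMIs came only from libraries numbered 3 and 4, and the levels below are pooled over libraries. Differences between libraries and between kinds of cell therefore cannot be told apart in them. In the 47 cells with at least 10 Acta2 UMIs, Tagln was 3046 CPM, Tpm1 2859 CPM, Myl9 1466 CPM, Tpm2 1048 CPM and Actg2 464 CPM. In the 113 cells without Acta2, they were 83.4, 405, 173, 187 and 3.09 CPM. Col11a1, a collagen gene of the sheath list, was 983 against 120 CPM, Acan, the gene of the proteoglycan aggrecan, 237 against 4.63 CPM, Itga8, an integrin gene, 284 against 49.4 CPM, and Ednrb, an endothelin receptor gene, 5024 against 107 CPM. The reverse held for Crabp1, a papilla marker, with 0 against 806 CPM, for Lef1, a Wnt pathway transcription factor gene, with 7.04 against 247 CPM, and for the Wnt regulator genes Notum, with 0 against 190 CPM, and Rspo3, with 2.35 against 141 CPM. The 20 markers did not fall into a clean split, since Corin, also a papilla marker, was 237 against 72.6 CPM, and Wif1 was 880 against 843 CPM, Vcan 549 against 442 CPM, Alx4 75.1 against 89.6 CPM and Tbx18 39.9 against 32.4 CPM. Median depth was 8441 UMIs in the first cells and 5316 in the second. Rgs5 was at 0 in both and Des was at 0 in both.

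The rest of the follicle-like epithelium held less Acta2 than cluster 9, at 226 CPM over 1333 cells. In cluster 2 Acta2 was found in 84 of 314 cells (420 CPM) and Tagln in 98 (518 CPM). In cluster 3, with the follicle genes Grem1 and Lhx2 among its leading genes, Acta2 was 557 CPM, but 91.6% of these UMIs lay in 8 of its 301 cells and the level without them was 48.5 CPM.

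These 8 cells and 1 of cluster 2 made up 9 epithelial cells that held Myh11, Cnn1 and at least 5 UMIs of the basal keratin genes Krt5 and Krt14, and all were in PBMCsec library 2. The criterion was set after the values had been seen. Acta2 was 13750 CPM in them, with 46 to 191 UMIs per cell, Tagln 7033 CPM and Tpm2 3341 CPM, higher than in any of the 3 sets, and Des was at 0. Cnn1 was 1776 CPM and Myh11 1472 CPM, levels that the criterion itself raised. All 9 also held Oxtr, the oxytocin receptor gene, and the contractile genes Lmod1 and Mylk, and 7 held Krt8, a keratin of simple and glandular epithelium. Of 25 follicle markers 11 were in at least 25% of these cells, at a summed 5888 CPM, with Krt17 in all 9 (2874 CPM) and Lhx2 at 0. All 10 fibroblast markers had a UMI and 5 were in at least 25% of the cells, at a summed 1402 CPM, with Col1a1 and Dcn in 3 cells each, and the mural marker Rgs5 was at 0. Of a list of 7 genes drawn up for mammary or glandular myoepithelium Oxtr, Krt8 and Krt18 were found, and Krt19, Elf5, Wap and Csn3 were at 0. The list also holds genes that are not particular to myoepithelium, such as Krt8 and Csn3, so it cannot decide whether these cells are of that type. No type name is given to them.

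The 9 cells held 84.0% of the Cnn1 UMIs, 36.7% of the Myh11 UMIs and 10.8% of the Acta2 UMIs of all 6150 cells. The filter had removed 21 further barcodes that met the criterion, 20 of them in PBMCsec library 2 and 1 in vehicle library 3, of which 13 were over the mitochondrial limit and 10 over the gene limit. None of the 9 cells was in the top 5% of doublet scores, but the scoring called only 21 cells and had not worked, so it cannot decide whether they are doublets. Over all barcodes of PBMCsec library 2, Krt8 was 97.0 CPM, Krt18 138 CPM, Csn3, a milk protein gene, 84.3 CPM, and Elf5 10.6 CPM, against at most 10.01, 13.8, 13.9 and 0.923 CPM in the other 7 libraries. The part of this in the difference between treatments was not tested. Treatment fold changes without these cells are given for Acta2, Myh11 and Tpm2 over all cells. In the follicle-like epithelium they are given for Acta2, Tagln, Myl9 and Tpm2.

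**Figure D4:**
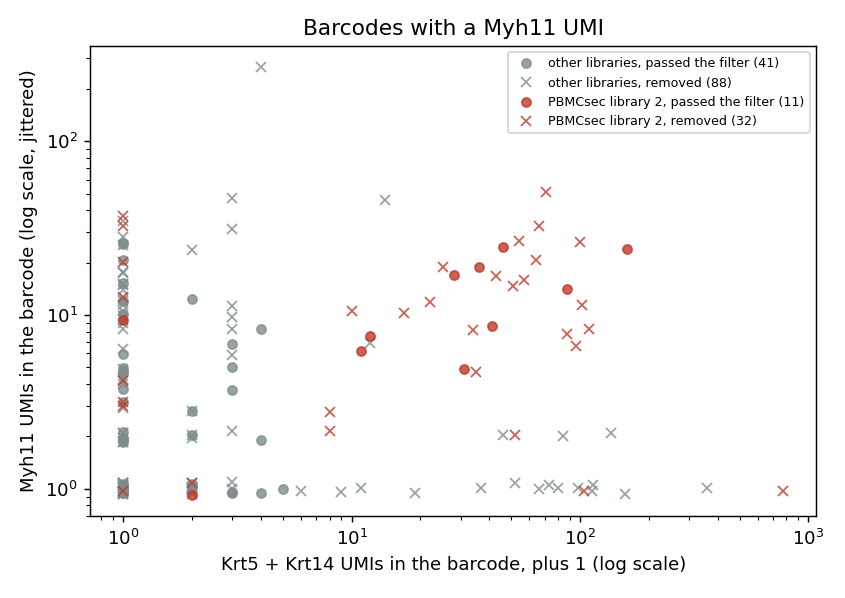
Each point is a barcode with a Myh11 UMI, placed by its Krt5 and Krt14 UMIs plus 1 (x axis) and its Myh11 UMIs (y axis), both on log scales, with circles for barcodes that passed the filter, crosses for removed ones and red for PBMCsec library 2. The red points at high Myh11 and high keratin UMIs include the 9 kept cells of PBMCsec library 2, while most barcodes of the other libraries lie at few keratin UMIs or at 1 or 2 Myh11 UMIs.

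Acta2 or Tagln also appeared in neutrophil-like cells and in cluster 35, where no cell held all of Acta2, Tagln, Myl9, Tpm1 and Tpm2. Acta2 was found in 19 of 117 neutrophil-like cells (16.2%, 148 CPM, 30 UMIs) and in 7 of the 8 libraries, with at most 4 UMIs in a cell, while Tagln and Myl9 were at 0 in the same cells. The share was 13.5% at 1000 UMIs per cell, against 0.362% in lymphoid cells, and 13 of 14 mural markers were at 0 in these cells. Tagln was found in 9 of 34 cells of the endothelial-like cluster 35 (593 CPM, up to 40 UMIs in a cell), in 6 of 8 libraries. Of the other members in this cluster, Tpm1 was found in 15 cells (125 CPM), Acta2 in 2 cells (46.4 CPM) and Tpm2 in 0.

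The cell filter kept shares of these genes close to its share of all UMIs. It kept 22.3% of the Acta2 UMIs, 21.2% of the Tagln UMIs, 22.0% of the Myh11 UMIs, 24.7% of the Des UMIs and 29.3% of the Myl9 UMIs of all barcodes, and 23.8% of all UMIs. Of 107 barcodes with at least 2 Myh11 UMIs 35 were kept, 21 of them mural-like, 9 in the follicle-like epithelium and 3 sheath-like, and 53 of the 72 removed were over the mitochondrial limit.

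Further genes of contraction were read from lists of known function. Of 32 genes of the contractile machinery 20 had their highest level of the 3 sets in mural-like cells, 7 in sheath-like fibroblasts and 5 in cluster 9. Myl6, a light chain gene, was 1751, 1714 and 2893 CPM in mural-like cells, sheath-like fibroblasts and cluster 9, and Cald1, the gene of caldesmon, was 1645, 1346 and 1671 CPM. Mylk, the gene of the kinase that activates the light chain, was 1093, 593 and 23.3 CPM in the same order. Lmod1 and Synpo2, further actin-binding genes, were 182 and 481 CPM in mural-like cells and 0 and 0.458 CPM in cluster 9, and Smtn, the gene of smoothelin, was highest in cluster 9 at 350 CPM.

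Among 26 regulators, of which 24 symbols were found, Notch3, a receptor of mural cells, was 683 CPM in mural-like cells, and the contraction signalling genes Rock2 and Rhoa were 491 and 476 CPM. The coactivator gene Myocd was 30.4 CPM in mural-like cells and 0 in both other sets, while Srf, the gene of serum response factor, was 40.5, 49.4 and 42.6 CPM in the 3 sets. Ednrb was 1908 CPM in sheath-like fibroblasts and 50.6 CPM in mural-like cells, and Ednra was 184 against 435 CPM. Of the widely expressed paralogs, Vim was 4095 CPM, Actb 3786 CPM and Actg1 1397 CPM in mural-like cells. Of 17 skeletal and cardiac muscle genes 12 were at 0 in mural-like cells, and those with the highest level, Myf5, Myl1 and Pax7, were 20.3, 15.2 and 15.2 CPM, with the Myf5 and the Pax7 UMIs each in 1 cell.

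The genes most like the members were found from Pearson correlations of log2(CPM + 10) over the 36 clusters, among 11537 genes. Clusters share libraries, so the values are a description. For the mean of the 9 members they were Klhl29 (r = 0.89), Arhgef17 (0.88), Klhl23 (0.87), Tmem35a (0.87), Dmd (0.82), Hspb2 (0.81), Mcam (0.79), Vcl (0.79), Plekhh2 (0.78) and Cspg4 (0.78). Dmd encodes dystrophin and Vcl encodes vinculin, which tie actin to the cell membrane. For Acta2 they were Klhl29 (0.87), Tmem35a (0.82) and Klhl23 (0.81). For Actg2 they were Itga8 (0.93), Hspb2 (0.88) and Lamc3 (0.83). For Tagln they were Mcam (0.86), Klhl29 (0.82) and Tmem35a (0.78). For Cnn1 they were Gm973 (0.77), Clmn (0.72) and Fam13a (0.72). The 9 epithelial cells of PBMCsec library 2 held 84.0% of the Cnn1 UMIs, and 8 of them were in cluster 3, where Gm973 was a leading gene. The Cnn1 values rest on these cells and were not computed without them. For Tpm1 they were Palld (0.85), Map1lc3a (0.83) and Enah (0.83). For Tpm2 they were Nrbp2 (0.87), Dzip1l (0.86) and Kctd15 (0.83). For Myl9 they were Klhl29 (0.94), Bace1 (0.89) and Arhgef17 (0.89). For Myh11 they were Synpo2 (0.84), Gm13889 (0.80) and Rgs5 (0.80). For Des they were Art3 (0.85), Synpo2 (0.81) and Gm13889 (0.81). Between members the closest pairs were Myh11 with Des (0.92), Acta2 with Tagln (0.91) and Tpm1 with Tpm2 (0.85), and the least alike were Tpm1 and Des (0.26).

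Treatment was compared on counts summed per library. In such sums fewer cells of a type and less RNA per cell cannot be told apart. Over all cells Acta2 was 44.7, 542, 113 and 421 CPM after PBMCsec and 34.4, 12.8, 230 and 299 CPM after vehicle, for libraries 1 to 4. Tagln was 58.6, 284, 117 and 360 CPM after PBMCsec and 28.96, 5.23, 154 and 196 CPM after vehicle. For both genes the groups overlapped, and the lowest values were in the vehicle libraries numbered 1 and 2, which had the fewest cells.

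Myh11 over all cells was 8.18, 60.5, 3.76 and 1.44 CPM after PBMCsec and 0.905, 0, 5.05 and 5.20 CPM after vehicle. Des was 8.68, 3.56, 2.45 and 4.18 CPM after PBMCsec and 0.905, 0, 1.5 and 4.78 CPM after vehicle. The Myh11 value of PBMCsec library 2 was above all others, and for both genes the remaining values overlapped between the groups. The skeletal muscle genes Acta1 and Ckm were higher over all barcodes of every PBMCsec library (2.53 to 12.9 CPM and 0.446 to 3.76 CPM) than of any vehicle library (0 to 0.132 CPM and 0.072 to 0.296 CPM). Of the same list, in UMIs not scaled to depth, Tnnt3 also lay apart, with 17 to 53 after PBMCsec and 3 to 9 after vehicle. Mylpf overlapped between the groups, with 120 to 248 UMIs after PBMCsec and 35 to 158 after vehicle. Skeletal muscle also uses desmin, and the part of its RNA in the Des difference was not tested. The mural-like cells held 62.4% of the Des UMIs and the unnamed clusters 23.7%. In the mural-like cells 8 of 11 skeletal muscle markers were at 0, Acta1 and Ckm among them. The others, Myf5, Pax7 and Myod1, were 20.3, 15.2 and 5.06 CPM.

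No contractile gene passed the test over all cells. The edgeR quasi-likelihood test with Benjamini-Hochberg adjustment tested 8 of the 9 genes. Cnn1, with 153 of its 181 UMIs in PBMCsec library 2, did not pass the count filter. The test called 0 of the 8 genes, against 0% of all 13182 genes tested, of which 335 had an unadjusted p under 0.05. By DESeq2, 8 genes passed, none of them a member. The log2 fold changes, PBMCsec over vehicle, were 0.97 ± 0.9974 (SE) for Acta2, 1.11 ± 0.92 for Tagln, 0.57 ± 0.72 for Myl9, -0.25 ± 0.51 for Tpm1, 0.28 ± 0.55 for Tpm2, -0.09 ± 1.10 for Actg2, 2.34 ± 1.17 for Myh11 and 1.14 ± 0.73 for Des, with an edgeR adjusted p of 1 for each. The median over the 8 was 0.77 and over all genes -0.02. The member median was 0.19 once the 9 epithelial cells were taken out. It was 0.0168 in the libraries numbered 3 and 4 alone, and 2.74 over 6 members in those numbered 1 and 2. Leaving out a single library gave member medians between 0.38 (PBMCsec library 4 omitted) and 1.40 (vehicle library 4 omitted).

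The Myh11 and Acta2 differences rested on few libraries. Without PBMCsec library 2 the log2 fold change of Myh11 was 0.43 and that of Acta2 was 0.45. Without the 9 epithelial cells, an alternative chosen after seeing the data, they were 0.44 and 0.09. The 9 cells also held 7.25% of the Tagln UMIs and 3.19% of the Myl9 UMIs of all cells. The fold changes of Tagln and Myl9 over all cells without them are plotted but not printed. In the libraries numbered 1 and 2 alone Acta2 was 3.75 and Myh11 6.43, and in the libraries numbered 3 and 4 alone they were 0.05 and -0.89, so neither difference held within the libraries numbered 3 and 4.

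In the follicle-like epithelium the Acta2 level was 97.6, 3115, 353 and 748 CPM in PBMCsec libraries 1 to 4 and 104, 35.1, 419 and 375 CPM in vehicle libraries 1 to 4. Tagln was 131, 1591, 401 and 725 CPM after PBMCsec and 176, 21.03, 302 and 318 CPM after vehicle. PBMCsec library 2, the library of the 9 cells, was the highest for both, and the other libraries overlapped between the groups.

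The edgeR log2 fold changes in the follicle-like epithelium were 2.29 ± 0.93 for Acta2, 1.91 ± 0.75 for Tagln, 1.23 ± 0.69 for Myl9, 0.72 ± 0.48 for Tpm2 and -0.14 ± 0.43 for Tpm1 (SE, 4 against 4 libraries, edgeR). The unadjusted p of edgeR was 0.0297 for Acta2 and 0.0257 for Tagln, and the adjusted p was 0.9998 for all 5. edgeR called 0 of the 5 members tested, against 0% of 9838 genes, of which 377 had an unadjusted p under 0.05, while 0 genes passed by DESeq2. Without the 9 cells the values were 0.49 for Acta2, 0.75 for Tagln, 0.38 for Myl9 and 0.19 for Tpm2, and without PBMCsec library 2 they were 0.76, 1.07, 0.64 and 0.04. In the libraries numbered 1 and 2 alone Acta2 was 4.97 and Tagln 3.68, and in those numbered 3 and 4 alone they were 0.54 and 0.92. With cells pooled over libraries, cluster 1 held 27.2% of this class after PBMCsec and 14.7% after vehicle, and cluster 13, where Tpm1 was highest, 8.08% and 17.7%. Vehicle library 3 alone gave 557 of the 846 vehicle cells. By library cluster 1 held 55 of 142, 10 of 38, 95 of 283 and 35 of 255 cells after PBMCsec. After vehicle it held 7 of 11, 11 of 41, 79 of 557 and 27 of 237. For both clusters the shares by library overlapped between the groups.

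In all fibroblasts, the 1562 cells of the sheath-like and the other fibroblast clusters, the fold changes of all 5 genes tested were below 0, whereas in the follicle-like epithelium only that of Tpm1 was. They were -0.87 ± 1.09 for Acta2, -0.61 ± 0.96 for Tagln, -0.36 ± 0.55 for Myl9, -0.41 ± 0.31 for Tpm1 and -0.48 ± 0.51 for Tpm2 on the log2 scale (SE, edgeR adjusted p = 1). edgeR called 0 of 5 members, against 0% of 9577 genes, of which 185 had an unadjusted p under 0.05, while 0 genes passed by DESeq2. Without vehicle library 4, the library with the highest sheath-like Acta2 level, the values were 0.11 for Acta2, 0.23 for Tagln and 0.16 for Myl9, so their direction rested on that library. Without PBMCsec library 4 Acta2 was -2.999.

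Too few libraries had 10 sheath-like fibroblasts for the planned test, with 3 PBMCsec and 2 vehicle libraries. The log2 ratio of their mean levels was -1.62 for Acta2, -1.42 for Tagln and -1.14 for Actg2, with no test. With a minimum of 5 cells in place of 10, 4 PBMCsec and 3 vehicle libraries could be tested, and edgeR called 0 of 6 members, against 0% of 4003 genes, of which 72 had an unadjusted p under 0.05. Acta2 was -1.42 ± 1.54 and Actg2 -0.92 ± 1.19 (SE, edgeR adjusted p = 0.9997 for both). Without vehicle library 4 the values were 0.01 for Acta2 and 0.64 for Actg2, and without PBMCsec library 4 they were -3.29 and -2.51. The mural-like cells gave no test, since only 1 library had 10 of them.

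**Figure D5:**
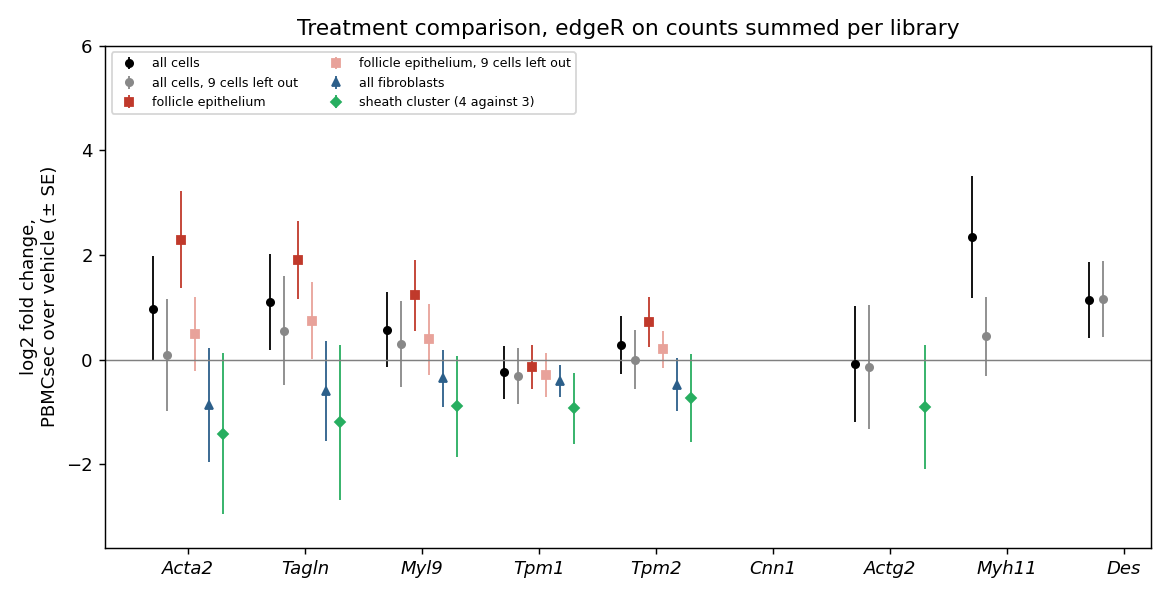
Points give the log2 fold change of each contractile gene, PBMCsec over vehicle, with bars of 1 SE (y axis), for all cells, the follicle-like epithelium, both without the 9 epithelial cells, all fibroblasts and the sheath-like cluster. No gene was called in any of these comparisons, and the Acta2 value of the follicle-like epithelium moves from 2.29 to 0.49 when the 9 cells are left out.

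The difference between the follicle-like epithelium and all fibroblasts in their treatment effects was tested itself, on log2(CPM + 10) per library. It was 2.99 for Acta2 (exact two-sided permutation test, p = 0.0571, adjusted p = 0.179 over 5 genes) and 2.13 for Tagln (exact p = 0.143, adjusted p = 0.179), and none of the 5 passed. Without the 9 epithelial cells it was 1.69 for Acta2 (exact p = 0.0571, adjusted p = 0.286) and 0.85 for Tagln (exact p = 0.200, adjusted p = 0.333), and without PBMCsec library 2 it was 1.51 (exact p = 0.114, adjusted p = 0.357) and 0.85 (exact p = 0.286, adjusted p = 0.357), alternatives chosen after seeing the data. The smallest p that 4 against 4 libraries allow is 0.0286, and 1 gene alone at that p would not pass after adjustment over 5 genes. With 1 library left out no exact p under 0.05 is possible.

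The shares of the cells that hold these genes did not pass a test either. Among the cells of a library, 0.753% ± 0.337 were mural-like in the PBMCsec group and 0.292% ± 0.470 in the vehicle group (SD, n = 4, exact two-sided permutation test, p = 0.171, adjusted p = 0.686 over 4 tests). Sheath-like fibroblasts were 3.32% ± 1.14 and 2.81% ± 0.835, the follicle-like epithelium 20.8% ± 8.38 and 22.4% ± 11.6, and cluster 9 2.84% ± 2.45 and 3.25% ± 2.16 (exact permutation tests, adjusted p = 0.914 for each). In all 4 the groups overlapped. The smallest p that this exact permutation test allows is 0.0286, and 1 class alone at that p would not pass after adjustment over 4 tests.

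None of the tested genes of the accessory lists was called by edgeR in any class, against 0% of all genes tested. Of the 17 skeletal and cardiac muscle genes only 4 were tested over all cells and 0 in each class. Acta1 and Ckm did not pass the count filter, so they could not be called. In all cells 26 of the 32 genes of the contractile machinery were tested, with a median log2 fold change of 0.13, and in the follicle-like epithelium 18, with a median of 0.23. In all fibroblasts the median of 22 genes was -0.21, and in the sheath-like cluster with a minimum of 5 cells that of 22 genes was -0.86. In that cluster the median of the 6 contractile genes was -0.93 and that of all genes 0.04. Omitting vehicle library 4 moved the median of the 6 to 0.0185, with 5 of them above 0. Omitting any other single library left it between -2.22 (PBMCsec library 4) and -0.62 (PBMCsec library 2).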

How the data were processed

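Single-cell libraries of 8 skin samples, 4 given PBMCsec and 4 vehicle, were analysed from the UMI count matrices that the authors deposited, whole-number counts per gene and barcode. Per the labels they were made with 10x 3' chemistry, Cell Ranger 3.0.2 and mm10. From these counts, barcodes were kept by the study's limits on detected genes (500 to 4000), UMIs (20000 or fewer) and mitochondrial share (5% or less). Cells were integrated and clustered with Seurat 5.3.0 (2000 variable genes, 30 dimensions, resolution 1), leaving out 96 genes, the contractile genes and the accessory lists among them. A cluster was named where at least 3 markers of a list stood in at least 25% of its cells at 2 times the level elsewhere. Doublets were scored with Scrublet in scanpy 1.11.5, which called only 21 cells (0.341%) and so had not worked, and the top 5% of scores was used as an alternative.

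The contractile genes and the lists were chosen with earlier results of these data known. The genes named are the 9 members, for each accessory list the 3 genes with the highest level in mural-like cells, and the genes most like the members by correlation (10 for the mean and 3 for each member, among genes with at least 200 UMIs). Further genes of these lists were named after their values were seen.

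Counts were summed per library over all cells or over a class (libraries with at least 10 cells of it, and at least 3 libraries per group) and tested with edgeR 4.0.16 (quasi-likelihood test, TMM, Benjamini-Hochberg threshold 0.05). The SE of each edgeR fold change was computed back from the fold change and the p-value of the quasi-likelihood test, so it adds nothing to them. DESeq2 1.42.0 was an alternative. Tested on simulated data, the edgeR test recovered 15% of genes changed by 1 on the log2 scale and 99% of those changed by 3 over all cells (13182 genes), and 33% and 99% in the follicle-like epithelium (9838 genes). The changed genes were drawn only from those above the median level, so recovery of sparser genes was not tested. Recovery was also not computed for genes with an SE as large as that of Acta2, Tagln or Myh11, so these rates do not apply to them. Class shares were tested with exact permutation tests (scipy 1.17.1). Share intervals are Clopper-Pearson and level intervals exact Poisson, both at 95%, and the limit for a count of 0 is 3 cells of the total. Libraries with the same number in both groups deviated together over all cells (correlations 0.288, 0.296, 0.469 and 0.570), a pairing seen in the data since the labels do not say what a number shares. Alternatives were other tests, filters, libraries left out, cell limits and the library number as a block. Those for all fibroblasts, for the sheath-like cluster at 5 cells without single libraries, for the 9 epithelial cells and for cluster 9 were chosen after seeing the data.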

Additional observations from a re-analysis of the deposited data

Results flagged for a closer look

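In PBMCsec library 2, Cnn1 over all cells was 68.0 CPM against 0.334 to 0.576 CPM in the other 3 PBMCsec libraries, and Myh11 was 60.5 CPM against 1.44 to 8.18 CPM, both far from the rest of the group. In the follicle-like epithelium of the same library Cnn1 was 397 CPM against 0.781 to 1.09 CPM, and Myh11 was 329.7 CPM against 0. The 9 epithelial cells with both genes are all in this library.

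In vehicle library 1 Tagln was 38.4 CPM in fibroblasts, from 9 UMIs, against 0 to 6.07 CPM in the other vehicle libraries. In all, 49 groups of 4 libraries were checked and 5 held such a library, and chance flags about 1 group in 20.

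Outside the cells that passed the filter, 20 barcodes of PBMCsec library 2 held Myh11, Cnn1 and at least 5 Krt5 and Krt14 UMIs, against 1 in vehicle library 3 and 0 in the other 6 libraries.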

How the results depend on the processing

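No alternative called a contractile gene. The difference of effects between the follicle-like epithelium and all fibroblasts kept its sign for all 5 genes without the 9 cells and with 1 library left out. For Acta2 it ran from 1.51 to 3.83. Without the 9 cells no gene passed. With 1 library left out none could pass, since 3 against 4 libraries allow no exact p under 0.05. DESeq2 called 8 genes over all cells, none of them a member. In the follicle-like epithelium leaving out 1 library gave 0 to 1 called genes, the 1 being Rgs4 without PBMCsec library 4 (log2 fold change 3.54, edgeR adjusted p = 0.0128), named after its value was seen. The difference in the share of follicle-like cells, -1.61 percentage points, ran from -6.66 to 2.10 with 1 library left out and was above 0 without PBMCsec library 2 (1.29), vehicle library 3 (2.10) or vehicle library 4 (0.639).

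Directions turned for genes that passed no test, and the cause was not tested. With 1 library left out, the log2 fold changes over all cells ran from -0.58 to 0.10 for Tpm1 (0.10 without vehicle library 4), -0.15 to 0.67 for Tpm2 (-0.15 without PBMCsec library 4) and -1.44 to 1.08 for Actg2 (1.08 without vehicle library 4). In all fibroblasts they ran from -2.999 to 0.11 for Acta2, -2.13 to 0.23 for Tagln and -0.86 to 0.16 for Myl9, the upper ends without vehicle library 4, and for Tpm1 in the follicle-like epithelium from -0.43 to 0.16. In the libraries numbered 1 and 2 alone, Tpm1 was 0.41 over all cells and 0.67 in the follicle-like epithelium, and Tagln 0.10 in all fibroblasts. In those numbered 3 and 4 alone, Myh11 was -0.89 and Tpm2 -0.10 over all cells, and Tpm2 -0.0278 in the follicle-like epithelium. Tpm2 over all cells was -0.00389 without the 9 epithelial cells. Actg2 over all cells was 0.0734 with DESeq2, 0.26 with every barcode and 0.12 with a mitochondrial limit of 10%.

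With the library number as a replicate block no call changed. Acta2 was 0.96 over all cells, 1.51 in the follicle-like epithelium and -1.55 in all fibroblasts (edgeR adjusted p = 0.9997), Myh11 was 0.94 and Actg2 0.0853 over all cells, and Tpm1 was 0.03403 in the follicle-like epithelium. Same-numbered libraries did not deviate together in every pair in the follicle-like epithelium (-0.0224 to 0.442) or in all fibroblasts (-0.00985 to 0.243), and 5 of 8 libraries correlated best with their own number. The same alternatives for mural-like cells and, apart from the cell minimum, for the sheath-like cluster gave no test, since too few libraries had enough cells.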
